A study of Mus musculus with 2 samples.

Results

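Trp53, the mouse gene of the transcription factor p53, and 9 genes that p53 is known to activate (Mdm2, Ccng1, Trp53inp1, Cdkn1a, Gadd45a, Bax, Bbc3, Phlda3 and Zmat3) were measured in mDE6 cells, a mouse odontogenic epithelial line, on Agilent microarrays. The genes were chosen by name: every probe whose gene name on the array was 1 of these was taken, control spots aside. They were 10 of the 37074 gene names on the array and had 16 probes. There was 1 array of the control cells, which the label gives as treated with DMSO for 6 h, and 1 array of cells treated for 6 h with CHIR99021, an inhibitor of GSK-3 that activates β-catenin signalling. The label gives the dose as 5 mM, while the methods of the study give it in μM and call the control untreated. Both arrays carry the same cell line with no genetic change given in the labels. With 1 array per condition no difference has a replicate check, and no statistical test of a difference was made.

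p53 is kept scarce in unstressed cells because Mdm2, which p53 itself induces, binds it and marks it for degradation. DNA damage, oncogene activity or nucleolar stress release p53 from Mdm2, and p53 then activates genes for cell cycle arrest, apoptosis, DNA repair and antioxidant defence. A rise in p53 protein does not need a rise in its mRNA, so the targets are the usual readout of its activity in expression data.

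The treatment was checked first on genes that β-catenin is known to induce. The measured probe of Lef1, a partner of β-catenin on DNA, had a processed signal (spot brightness after background subtraction, in arbitrary units) of 239 on the control array and 690.5 on the treated array, a log2 ratio of 1.58 after each array was scaled to its 75th percentile. The feedback inhibitors Axin2 and Nkd1 passed the background test on the CHIR99021 array alone, so that each has a limit: Axin2 was at least 1.66-fold and Nkd1 at least 25.8-fold higher. The spot of Nkd1 was uneven, with a pixel SD of 0.401 of its mean, and 12 spots near it (within 3 rows and columns) changed over 4-fold, as did 6 spots near that of Lef1 and 3 near that of Axin2.

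The p53 consensus was counted in the promoters of these genes. Of the 10 genes, 8 had a promoter window in RefSeq (GRCm38.p6), taken as the 250 bases before to 50 bases after a gene start. The p53 consensus decamer, the palindromic 10-base unit of which p53 binds a pair, was found in the windows of 6 of these 8 (75%), namely Trp53, Cdkn1a, Mdm2, Ccng1, Bax and Gadd45a. It was in 8.63% of the 10863 tested genes with a window, and in 8.36% of all 32851 windows of this length. No match was found in the windows of Bbc3 and Phlda3. The consensus reads the same on both strands. Windows of 80 bases around it are printed for an arrest gene with several matches, for the inhibitor of p53 and for an apoptosis gene, 5′ to 3′ on the gene's strand, with the decamer in capitals.
Cdkn1a, chr17:29090882-29090961, plus strand: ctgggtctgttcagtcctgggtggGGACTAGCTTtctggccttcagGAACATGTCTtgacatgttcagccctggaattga
Mdm2, chr10:117710900-117710979, minus strand: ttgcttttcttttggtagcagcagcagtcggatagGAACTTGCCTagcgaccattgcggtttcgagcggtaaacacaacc
Bax, chr7:45467055-45467134, minus strand: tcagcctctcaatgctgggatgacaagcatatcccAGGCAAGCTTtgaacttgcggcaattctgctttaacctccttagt
Cdkn1a has 2 gene starts in the table: the printed stretch, with 2 matches, lies before the upstream start, and the window of the downstream start holds 0 matches. The Mdm2 match starts 186 bases and the Bax match 201 bases before the gene start. A match is a run of letters and was not tested for binding.

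The 3 probes whose ratio lay furthest from 1 are identified by the first 30 of their 60 bases, given 5′ to 3′ with the mm9 position of the whole probe.
Bbc3, probe A_51_P248122, chr7:16903403-16903462, plus strand: tgggagcggggagggacggcccagcctgta
Trp53inp1, probe A_51_P175580, chr4:11101174-11101233, plus strand: gtgtgtttatgggcacaatgttttctctca
Trp53inp1, probe A_55_P1973906, chr4:11092530-11092589, plus strand: aactcctgtcctggtctcagtgaggcgagt
All 3 match the plus strand, and both Trp53inp1 probes are assigned to the same transcript, from base 659 and from base 5041.

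Of the 16 probes, 13 were well above background on both arrays and 3 on neither. The 3 were a further probe of Gadd45a (A_55_P2617034) and 2 further probes of Cdkn1a (A_55_P1976204 and A_55_P1986282), which were designed on other transcripts. Every gene kept at least 1 measured probe. A gene is given by the measured probe with the highest mean signal. No gene had a ratio of at least 1.5, the inverse of the limit used in the study, against 7.46% of the 18837 genes tested. A ratio of at most 0.66 was reached by 2 of the 10 genes (20%), Bbc3 and Trp53inp1, against 7.82% of all genes. The latter was past it by its chosen probe alone: with the mean over its probes its ratio was 0.837 and the count 1. The other 8 genes lay between 0.903 and 1.29, and 7 of the 10 (70%) lay above 1, against 53.3% of all genes tested. The median log2 ratio of the 10 genes was 0.20 and that of all genes tested 0.024. These counts rest on 10 chosen genes and describe these 2 arrays. RNA was taken from whole cultures, so that fewer expressing cells and less mRNA per cell cannot be told apart.

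**Figure D1:**
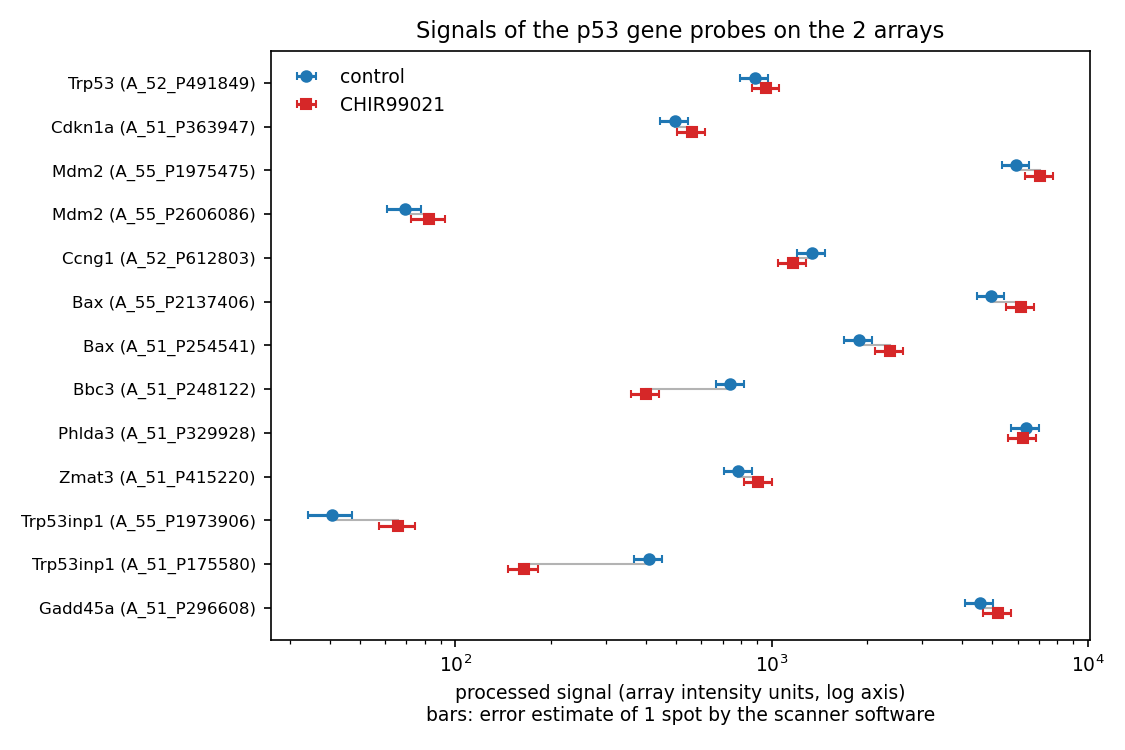
Processed signal of each p53 gene probe well above background, on a log axis in array intensity units, on the control array (circles) and the CHIR99021 array (squares), before scaling between arrays. Bars are the scanner software's error estimate for 1 spot. The bars of the 2 arrays lie apart for Bbc3 and for both Trp53inp1 probes, and overlap or nearly touch for the rest.

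Trp53 itself was read by 1 probe, placed in mm9 at chr11:69403134-69403193. Its processed signal was 885 ± 88.7 in the control and 960.5 ± 96.3 after CHIR99021, where the error is the estimate that the scanner software makes for a spot. For bright spots this estimate is close to its preset of 10% of the signal, so that it covers the spot and not the culture. The scaled ratio was 1.13, with a 95% interval from the error estimate of 0.853 to 1.49. The interval includes 1. All probe positions are those of the files, in mm9.

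Mdm2, the ubiquitin ligase that degrades p53 and its feedback target, was read by 2 probes. The first, at chr10:117126010-117126069, had a signal of 5943 ± 594 in the control and 7049.9 ± 705 after CHIR99021. Its ratio was 1.23, with an interval of 0.933 to 1.62. The second probe had signals of 69.0 and 82.5 and a ratio of 1.24. The probes of Mdm2 thus gave nearly the same ratio at very different brightness, and both intervals include 1. Ccng1, which encodes cyclin G1, a partner of Mdm2 and of protein phosphatase 2A, had signals at chr11:40562427-40562486 of 1341 ± 134 in the control and 1167 ± 117 after CHIR99021. Its ratio of 0.903 (interval 0.684 to 1.19) was the 1 value below 1 among the 8 genes inside the limits.

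Trp53inp1, a stress-induced nuclear protein that promotes p53 phosphorylation and autophagy, was the gene whose probes diverged. The probe from base 5041 of the transcript had a signal of 409.9 ± 41.4 in the control and 165 ± 17.7 after CHIR99021. Its ratio was 0.417, with an interval of 0.312 to 0.556. Its Z-score, which sets the log2 ratio against the 500 probes nearest in mean signal, was -2.73. The probe from base 659 had a signal of 40.5 ± 6.45 without and 65.8 ± 8.64 with CHIR99021, and a ratio of 1.68 (interval 1.12 to 2.52, Z-score 0.84). The same gene was thus past the lower limit by the probe chosen for it and past the upper limit by the other. On the CHIR99021 array the pixel SD of this second spot was 0.268 of its mean. That is above 0.261, the 99th percentile of the spots in the earlier rows (up to row 192). Near it, 2 spots that passed background on 1 array alone changed over 4-fold. The spot of the first probe had 0 such neighbours. The part of these spot properties in the divergence was not tested.

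Probes of the same gene rarely diverged this way. Among the 5688 genes with several probes measured on both arrays, 12 (0.211%) had probes past both limits. Of the p53 genes, 3 had several measured probes, and those of Mdm2 and Bax gave nearly equal ratios. None of 13 other p53 targets with several measured probes diverged past both limits. Where Trp53inp1 is counted among the genes, its value is that of the brighter probe.

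Cdkn1a, the CDK inhibitor p21 through which p53 arrests the cell cycle, was read by 1 measured probe at chr17:29237377-29237436. The signal was 494 ± 49.7 without and 559 ± 56.2 with CHIR99021, a ratio of 1.17 (interval 0.888 to 1.55). Around this spot, 6 spots that passed background on 1 array alone changed over 4-fold. Gadd45a, a stress sensor that acts in arrest and repair, had signals at chr6:66985376-66985435 of 4561 ± 456 and 5192 ± 519 and a ratio of 1.18 (interval 0.895 to 1.56). Both intervals include 1.

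Among the apoptosis genes, Bax and Bbc3 lay on opposite sides of 1. Bax, which permeabilises the outer mitochondrial membrane, had signals of 4958 ± 496 without and 6147 ± 615 with CHIR99021 at chr7:52717122-52717181, a ratio of 1.29 (interval 0.975 to 1.70). Its second probe had signals of 1886 and 2362 and a ratio of 1.30. Both probes of Bax were the highest of the 8 genes inside the limits, and both intervals include 1.

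Bbc3 encodes PUMA, a BH3-only protein that releases Bax from its inhibitors. Its probe had a signal of 741 ± 74.4 in the control and 400.4 ± 40.6 after CHIR99021. The ratio was 0.561, with an interval of 0.424 to 0.741 and a Z-score of -2.17. Bbc3 had a single probe, in row 353 of the array's 384 rows, with a pixel SD of 0.141 and 0.135 of the mean. Of the spots near it that passed background on 1 array alone, 0 changed over 4-fold. Bbc3 and Trp53inp1, the latter by its brighter probe, were the 2 of the 10 genes past both the ratio and the Z limit of 2 in size, which 3.22% of all genes passed downward and 2.63% upward.

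Phlda3, which blocks AKT at the membrane, had signals at chr1:137665642-137665701 of 6368 ± 637 and 6235 ± 624 and a ratio of 1.02, the closest to 1. Its direction turned with the processing of the signals, from 0.958 to 1.04 over 7 settings (scalings between the arrays, normexp background correction and the authors' table). The other 9 genes stayed on 1 side of 1 over these settings, Bbc3 from 0.540 to 0.611 and Trp53inp1 from 0.402 to 0.496. Zmat3, an RNA-binding protein that acts in splicing, had signals at chr3:32233831-32233890 of 786 ± 78.8 and 909 ± 91.1 and a ratio of 1.20 (interval 0.909 to 1.58), with 3 changed spots near it.

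**Figure D2:**
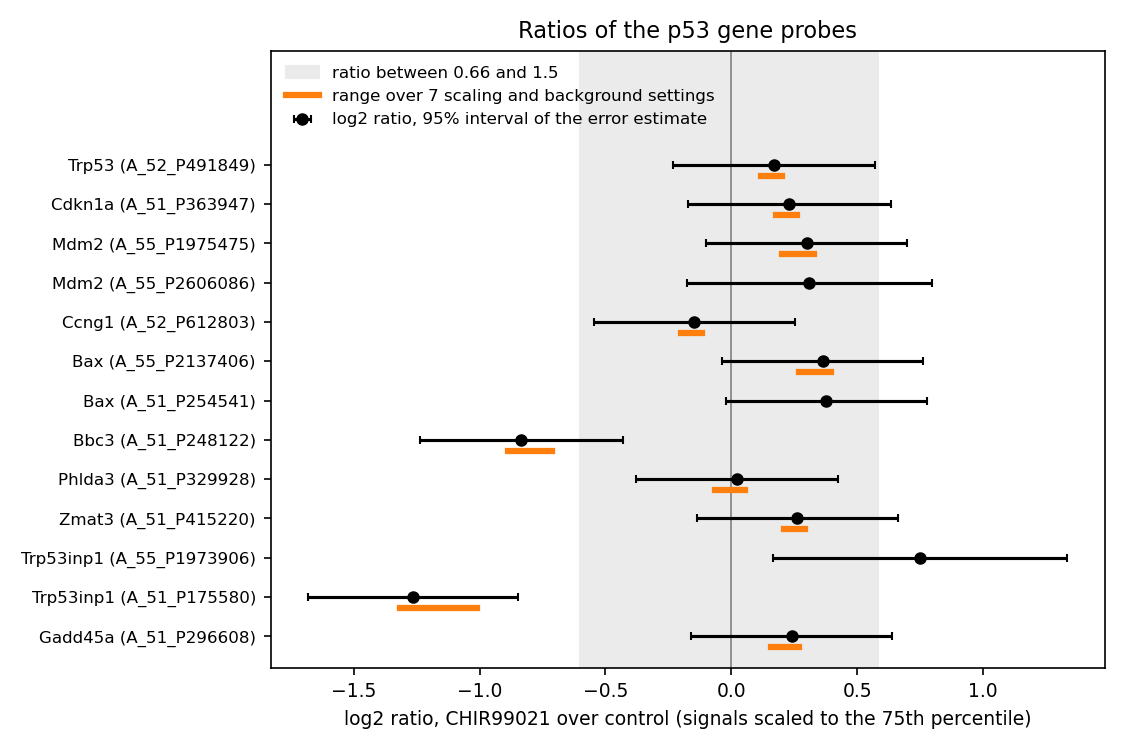
Log2 ratio of CHIR99021 over control for each p53 gene probe, with the 95% interval of the error estimate (black bars), the range over 7 scaling and background settings for the probe that stands for its gene (orange bars) and the band between ratios of 0.66 and 1.5 (grey). The interval includes 0 on this log2 axis for 10 of the 13 probes, and the exceptions are Bbc3 and both Trp53inp1 probes.

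The spread of the 13 probes was compared with the error of a spot. The interval of the ratio included 1 for 10 probes and excluded it for 3. Probes printed repeatedly give a second view of the spot error: over 220 probes with 10 spots each, the SD of the log2 ratio had a median of 0.03 and a maximum of 0.22. The log2 ratios of Bbc3 (-0.84) and of the brighter and dimmer Trp53inp1 probes (-1.26 and 0.75) were several times that maximum. The repeated probes were not matched to these in brightness. For the dimmer Trp53inp1 probe the software's own error of the log2 ratio was 0.30, above that maximum, and its Z-score among probes of like signal was 0.84. A further 7 probes, those of Cdkn1a, Mdm2, Bax, Zmat3 and Gadd45a, had log2 ratios of 0.23 to 0.38, above the maximum of the repeats though inside the wider interval of the error estimate. The probes of Trp53, Ccng1 and Phlda3 lay within the repeats' maximum. Both errors lie within the arrays and hold nothing of the difference between cultures.

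**Figure D3:**
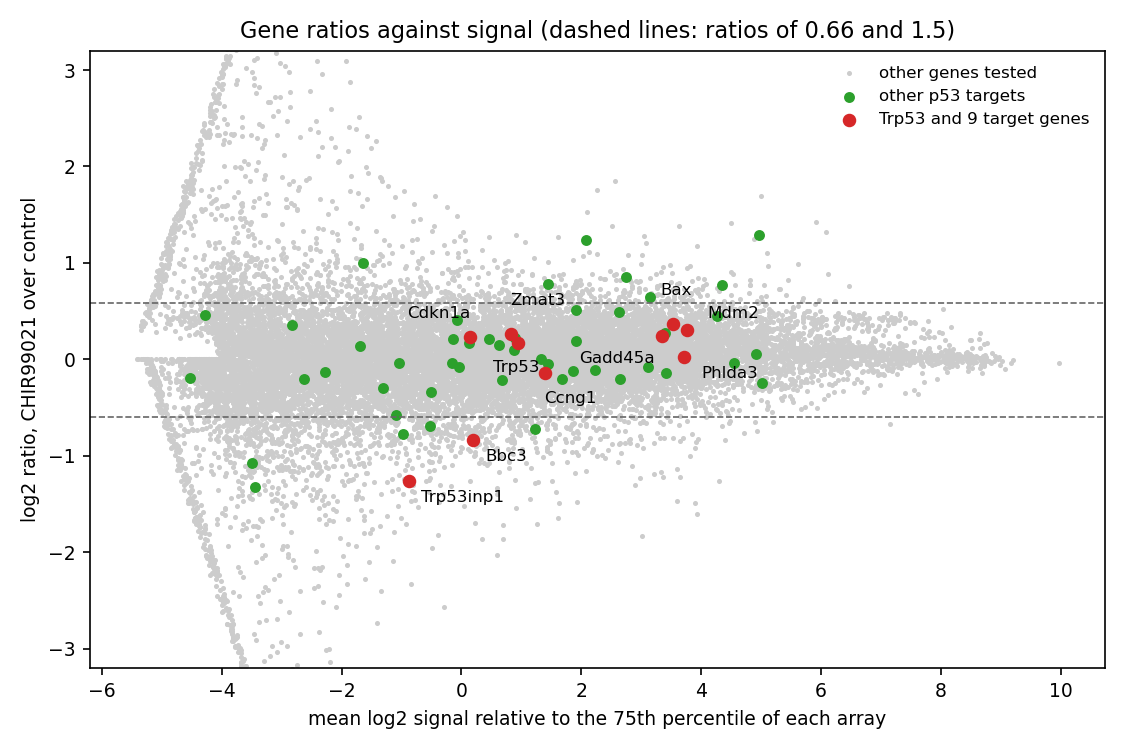
Log2 ratio of each gene tested against its mean log2 signal relative to the array's 75th percentile, with Trp53 and the 9 targets in red, other p53 targets in green and dashed lines at ratios of 0.66 and 1.5. The axis ends 3.2 log2 units from 0 and leaves out 134 genes. Bbc3 and Trp53inp1 are the red points below the lower line, and the other 8 red points lie between the lines.

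By the probe chosen for each gene, the regulators of p53 lay between the limits, while single further probes of Mdm4, Ppm1d, Sirt1 and Trp63 lay past them. All 17 listed regulators were measured on both arrays, and by the chosen probe 0 had a ratio of at least 1.5 and 0 of at most 0.66, and 6 lay above 1, beside 7.46%, 7.82% and 53.3% of all genes. In a list of 17 genes, 0 past a limit is close to those shares and is no result about the regulators. Their median log2 ratio was -0.017. Mdm4, the relative of Mdm2 that masks the activation domain of p53, had a ratio of 0.988, and its 5 measured probes ranged from 0.988 to 1.55. The damage kinases Atm, Chek1 and Chek2, which phosphorylate p53, had ratios of 1.19, 1.01 and 0.728. Cdkn2a, whose ARF product holds Mdm2 off p53, had signals of 32258 and 33422 and a ratio of 1.07. Ppm1d, the phosphatase WIP1 that dampens p53, had signals of 161 and 118 and a ratio of 0.761, with 0.972 at another probe. Another probe of Ppm1d passed the background test for the control alone and was at least 4.47-fold lower with CHIR99021, in row 382, with 10 changed spots near it. Sirt1, a deacetylase of p53, and Trp63, a relative of p53, are named after their values were seen. A further probe of Sirt1 was at least 1.75-fold higher, with a pixel SD of 0.285 of its mean on the CHIR99021 array, while the chosen probe had a ratio of 0.888. A further probe of Trp63 was at least 2.83-fold lower, with a pixel SD of 0.462 of its mean in the control and 8 changed spots near it, while the chosen probe had a ratio of 1.30.

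A longer list of p53 targets was set beside the 9. Of 51 other targets, 50 were found on the array, 48 were tested and 45 of these were measured on both arrays. A ratio of at least 1.5 was reached by 7 (14.6%) and a ratio of at most 0.66 by 5 (10.4%), beside the 7.46% and 7.82% of all genes. With normexp background correction the count at or below 0.66 was 2 of 48 (all genes 4.33%), and in the earlier rows alone the counts were 3 and 3 of 29 (all genes 4.80% and 5.78%). Ratios above 1 were found for 24 of the 48 (50%), and the median log2 ratio was -0.016. With the Z limit of 2 in size added, 6 of the 48 lay past the upper limit and 1 past the lower, beside 2.63% and 3.22% of all genes. By the ratio alone the list had genes past each limit, and its median was close to that of all genes.

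The 7 targets past the upper limit came from the arrest, apoptosis and metabolism lists, and 6 of them, all but Sco2, were past the Z limit as well. Ddit4, the inhibitor of mTORC1 also known as REDD1, had signals of 9668 and 22786. Its ratio of 2.45 (Z-score 4.42) was the highest of the list by the chosen probes. Plk3, a stress-responsive polo kinase, had signals of 1333 and 3034 and a ratio of 2.36 (interval 1.79 to 3.11). Sfn, the cell cycle inhibitor 14-3-3σ, had signals of 110.0 and 212 and a ratio of 1.99. These 3 lay above every one of the 10 genes described first. Bid, a BH3-only protein cut by caspases, had signals of 2423 and 4222 and a ratio of 1.81. Tigar, which lowers glycolytic flux, had signals of 1007 and 1665 and a ratio of 1.72. Aen, a nuclease of apoptosis, had a ratio of 1.71 by the chosen probe, and its other probes ranged from 1.25 to 2.46. Sco2, an assembly factor of cytochrome c oxidase, had a ratio of 1.57. Aen and Sco2 were named after their values were seen, to complete the 7.

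The 5 targets past the lower limit held 1 gene past the Z limit as well. Rprm, the arrest protein Reprimo, had signals of 70.7 and 27.2 and a ratio of 0.398, but its Z-score among probes of like signal was -0.83. Btg2, an antiproliferative cofactor of mRNA decay, had signals of 324 and 183 and a ratio of 0.585, with 0.625 at its other probe. Sesn1, a stress-induced sestrin that restrains mTORC1, had signals of 1461 and 856 and a ratio of 0.608, and its Z-score of -2.16 put it past both limits. Psrc1, a spindle protein, had signals of 429 and 256 and a ratio of 0.621. Eda2r, a receptor of the TNF family, passed the background test for the control alone and was at least 2.10-fold lower with CHIR99021, and at least 4.16-fold lower by a further probe with 10 changed spots near it. Tap1, a peptide transporter of antigen presentation, was the next lowest with a ratio of 0.672, inside the limit.

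A few further targets were past a limit by a probe other than the chosen one. Gls2, a mitochondrial glutaminase, was at least 2.03-fold lower by a further probe with 6 changed spots near it, and had a ratio of 1.16 by the chosen probe. Ei24, a membrane protein of the endoplasmic reticulum, was at least 1.74-fold higher by a further probe with 4 changed spots near it, and had a ratio of 1.07 by the chosen probe. Ptpn14, a phosphatase named after its values were seen, had signals of 329 and 550.5 and a ratio of 1.74 by a further probe, and 1.17 by the chosen one. The counts of the list use the chosen probe of each gene.

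**Figure D4:**
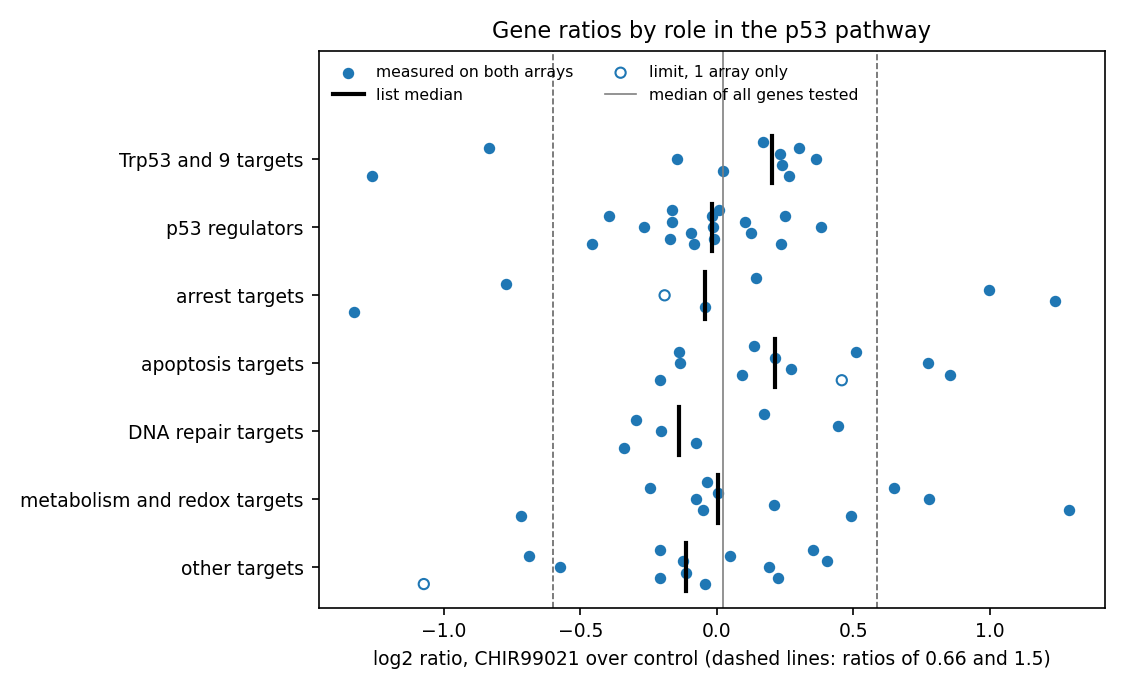
Log2 ratio of each tested gene of the p53 lists by role; filled points were measured on both arrays, open points are limits, black bars are list medians, the grey line is the median of all genes tested (0.024) and dashed lines mark ratios of 0.66 and 1.5. By the chosen probe of each gene, no regulator lies past a line, and both the arrest and the metabolism and redox targets have genes past each line.

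By role the counts were small, and they are given without an order, beside the 7.46% above and 7.82% below among all genes. Of 7 arrest targets tested, 2 lay above 1.5 and 2 below 0.66, among the latter the dim probe of Rprm, with a median log2 ratio of -0.042. Of 11 apoptosis targets, 2 lay above and 0 below, with a median of 0.21. The 6 DNA repair targets all lay inside the limits, with a median of -0.14. Of 11 metabolism and redox targets, 3 lay above and 1 below, with a median of 0.0033. Of 13 targets of other function, 0 lay above and 2 below, with a median of -0.11. The p53 consensus decamer was in the promoter window of 10 of 40 of these further targets (25%) and of 2 of 16 regulators (12.5%), against 75% of the 8 genes with a window described first.

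Some properties of the whole arrays apply to every value above. Each held 59305 spots besides control spots, of which 49.8% (control) and 48.3% (CHIR99021) were well above background and 0 were saturated. Both were printed on 1 slide, and the condition and the place on the slide cannot be told apart. Of 590 probes that changed over 4-fold, 96.1% lay in the later rows (from row 193), which held 51.6% of the tested probes. Of the 16 p53 gene probes, 9 lay in those rows, among them the probes of Bbc3 and of Trp53inp1 past the lower limit. The part of array position in the values was not tested. Among the odontogenic epithelium markers reported here, Krt14 (signals of 48.5 and 54.6) was well above background on both arrays and Krt5 on the CHIR99021 array alone, while Cdh1, Epcam and the enamel genes Amelx, Ambn and Enam were not on either. The Krt5 spot, in row 379, was uneven on the CHIR99021 array, with a pixel SD of 0.323 of its mean, and had 3 changed spots near it. Of 6 mesenchyme markers, 5 were well above background on both, with signals of 52302 and 45883 for Vim.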

How the data were processed

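Total RNA of mDE6 cells was amplified, labelled with Cy3 and hybridised to 1-colour Agilent arrays, 1 per condition. The authors deposited spot intensity values from Agilent Feature Extraction (10.7.1.1 in the file header, 9.5.1.1 in the submitters' processing notes), background-subtracted and not normalized between arrays, and a table of normalized intensity values, used here as an alternative. The header names a mouse design and mm9, whereas the methods name a human array. The number of arrays limits the precision.

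Each processed signal was divided by its array's 75th percentile (486.7 for the control, 469.17 for CHIR99021). Control and outlier spots were left out and spots of a probe averaged. Probes had to be well above background on either array, which left 28066 probes and 18837 genes. A probe that passed on 1 array only has a limit: its signal on the other array was raised, where lower, to the lowest signal that passed there. Calls took the study's limit of 0.66 and its inverse, 1.5, on the ratio alone. A Z-score of 2 in size was added only where stated. The calls were tested on simulated data. Promoters came from RefSeq, and no mm9 annotation of exons or UTRs was used here. Python 3.11.15, numpy 2.4.6, pandas 2.3.3, matplotlib 3.10.9, R 4.3.3 and limma 3.58.1 were used.

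The genes and lists were chosen with earlier results of these data known. Named were all probes of the 10 genes, 6 regulators, the 5 highest and 5 lowest measured ratios among other targets, any other target with a limit past 1.5-fold by any probe, and Lef1, Axin2 and Nkd1. Trp53cor1 was matched to no gene name, and D630023F18Rik and Trp53i11 had no tested probe. Alternatives were other scalings, background correction, filters and rules for several probes, and the earlier rows alone. An epithelial marker of the list is not reported here.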

Additional observations from a re-analysis of the deposited data

How the results depend on the processing

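No paired analysis was possible because the arrays number 1 per condition. The median log2 ratio of the 10 p53 genes (0.20) was 0.15 with quantile normalization, with the percentile over the probes that both arrays measured, without scaling and in the authors' table, 0.23 with median scaling, 0.24 with each gene's highest-ratio probe and 0.33 in the earlier rows. The count at or below 0.66 (2) was 1 with the mean over probes or the highest-ratio probe and 0 in the earlier rows, where Bbc3 has no probe. The count at or above 1.5 (0) was 1 with the highest-ratio probe and in the earlier rows, in both through Trp53inp1, whose ratio of 0.417 turned to 1.68. For the other targets, the median (-0.016) was 0.015 with median scaling, -0.067 with the percentile over probes that both arrays measured and -0.069 without scaling. It was 0.027 without a filter or with the highest-ratio probe and 0.093 in the earlier rows. The count at or below 0.66 (5) was 2 with normexp, 3 in the earlier rows and 4 to 6 otherwise. The count at or above 1.5 (7) was 3 in the earlier rows and 9 without a filter or with the highest-ratio probe. It was 6 with quantile normalization, the authors' table or the lowest-ratio probe. Fewer genes have probes in the earlier rows, and the other causes were not tested. Of 134 ratios of single p53 genes under alternatives, 88 moved by less than the median SD between repeat spots, 44 moved further and 2, both of Trp53inp1, turned the direction of a gene past a limit. Phlda3, close to 1, crossed it under 5 of the alternatives, counted among the 44. The median of all genes shifted by over 0.1 without a filter alone, to 0.18. Ratios computed without limits were an alternative chosen after seeing the data, and they gave 8 and 6 other targets past the limits, against 7 and 5. Probes below background on 1 array have limits alone, and a gene with 1 measured probe, such as Bbc3, has no second reading.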
